A study of Mus musculus with 10 samples.

Results

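The peaks described here are all those on mouse chromosomes 10 and 15 in 10 lists of open chromatin from bone marrow stroma, measured by ATAC-seq, an assay whose transposase inserts sequencing adapters wherever DNA is accessible. They number 72656 of 615190 listed peaks (11.8%), with 41833 on chromosome 10 and 30823 on chromosome 15. All cells came from C57BL/6J mice and carried a reporter in which GFP marks expression of Scf (stem cell factor, the product of Kitl). Freshly sorted stroma without the blood, red cell and vessel markers CD45, Ter119 and CD31 gave an Scf-GFP-negative group (2 libraries) and an Scf-GFP-positive group (2 libraries), both without a transduced gene. The other 2 groups were cultures seeded from Scf-GFP-positive stroma in alpha-MEM with fetal bovine serum and FGF-basic: a control culture transduced with vector alone (3 libraries) and revitalized MSCs (rMSC, 3 libraries), given the genes Klf7, Xbp1, Ostf1, Irf7 and Irf3 by transduction. None of the 5 transduced genes lies on chromosome 10 or 15. The chromosomes were chosen because their peak numbers were higher in rMSC than in control culture, so their shares in that contrast are given as a description without a test. The labels do not say whether replicates came from separate animals, cultures or transductions, so every p-value measures only the spread between these libraries.

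An open region in ATAC-seq marks a stretch of DNA from which nucleosomes have been displaced, most often a gene's promoter or an enhancer. The height of a peak reflects how often the transposase cut there among all cells of the sample and how many copies of that DNA the sample held. A regulatory element that opens or closes alters the peak at that element, beside neighbours that stay as they were, whereas a shift of a whole chromosome moves most of its peaks together. Bone marrow stromal cells that express stem cell factor are part of the niche that maintains haematopoietic stem cells, and lose part of that capacity in culture.

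Promoters with single-site differences on the 2 chromosomes are shown first. They were chosen after their values were seen, among gene starts with a peak in all 3 rMSC libraries and no control library, or the reverse, whichever way the lists were made comparable, together with Timp3 and Col13a1, to which the locus counts below return. Each line gives the bases that precede the gene start in RefSeq (GRCm38.p6, which has the coordinates of mm10), up to 250 of them and without any that fall inside the gene's own span, from 5′ to 3′ on the gene's strand. Named genes whose preceding bases all fell inside their own span are given below without sequence. Capitals mark matches on either strand to AP-1 (TGANTCA), an interferon response element (GAAA, any 2 bases, GAAA), Klf (CCNCNCCC), Xbp1 (TGACGTG) or Ebf (CCCNNGGG).
Igfbp6: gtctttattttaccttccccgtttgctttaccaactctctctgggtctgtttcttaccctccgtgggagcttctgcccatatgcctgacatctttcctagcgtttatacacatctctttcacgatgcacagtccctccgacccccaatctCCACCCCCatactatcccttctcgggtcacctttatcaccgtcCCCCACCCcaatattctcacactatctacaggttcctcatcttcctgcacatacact
Atp8b3: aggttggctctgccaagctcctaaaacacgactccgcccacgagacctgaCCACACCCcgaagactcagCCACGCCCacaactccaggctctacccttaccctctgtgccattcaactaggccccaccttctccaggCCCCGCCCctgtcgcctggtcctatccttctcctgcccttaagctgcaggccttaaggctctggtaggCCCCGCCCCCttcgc
Gramd4: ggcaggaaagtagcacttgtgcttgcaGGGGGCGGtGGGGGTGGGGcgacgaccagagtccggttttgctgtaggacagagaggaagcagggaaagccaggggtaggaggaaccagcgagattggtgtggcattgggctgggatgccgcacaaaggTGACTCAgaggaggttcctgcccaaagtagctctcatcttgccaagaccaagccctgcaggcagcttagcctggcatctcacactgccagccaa
Rtl6: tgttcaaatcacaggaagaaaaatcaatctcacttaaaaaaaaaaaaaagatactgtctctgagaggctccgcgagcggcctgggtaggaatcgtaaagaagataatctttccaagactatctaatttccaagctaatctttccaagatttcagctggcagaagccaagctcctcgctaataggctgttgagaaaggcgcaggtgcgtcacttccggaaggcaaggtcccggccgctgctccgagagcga
Timp3: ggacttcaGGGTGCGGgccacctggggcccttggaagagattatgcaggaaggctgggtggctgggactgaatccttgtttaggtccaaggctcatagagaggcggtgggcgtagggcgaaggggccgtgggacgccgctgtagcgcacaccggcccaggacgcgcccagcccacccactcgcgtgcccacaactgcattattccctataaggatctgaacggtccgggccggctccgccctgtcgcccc
Col13a1: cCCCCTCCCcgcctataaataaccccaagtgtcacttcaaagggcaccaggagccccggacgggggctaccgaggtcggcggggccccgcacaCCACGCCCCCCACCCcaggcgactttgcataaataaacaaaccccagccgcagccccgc

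The start of Igfbp6, a binding protein of insulin-like growth factors (the printed bases are chr15:102143936-102144185, plus strand), had a peak in all 3 rMSC libraries and in none of the other 7. Atp8b3, a phospholipid-transporting ATPase (chr10:80539155-80539374, minus strand), had one in the 7 libraries other than the 3 control cultures. Gramd4 (chr15:86057445-86057694, plus strand), a GRAM domain protein, had one in the 3 rMSC libraries and 1 Scf-GFP-negative library. Rtl6, a gene derived from a retrotransposon (chr15:84557824-84558073, minus strand), showed the opposite pattern, with a peak in the 3 control and 2 Scf-GFP-positive libraries and in no rMSC library. Timp3, an inhibitor of matrix metalloproteinases (chr10:86300162-86300411, plus strand), had a promoter peak in all Scf-GFP-positive and rMSC libraries and in 2 of 3 control libraries. That of Col13a1, a transmembrane collagen (chr10:61979207-61979358, minus strand), was open in the 2 Scf-GFP-positive libraries only.

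All but 1 of the 6 sequences held a match to the Klf letters, with 5 matches before Atp8b3 and none before Rtl6, counting overlapping matches separately. The Klf letters occur in the 250 bases before 46.2% of all 32619 gene starts searched, so that a match is common. An AP-1 match stood before Gramd4 only, where 6.78% of all starts hold one. No match to the interferon response (2.99% of starts), Xbp1 (1.66%) or Ebf letters (11.9%) lay in the printed bases. In all, 8 starts on the 2 chromosomes had a peak in every rMSC and no control library in all 3 ways of making the lists comparable, against 0.297% of all starts, and 5 had the reverse, against 0.267%. These counts were 0.309% and 0.193% of the 2585 starts on chromosomes 10 and 15. Of the other named genes among them, Ccdc105, Slc1a6 (a glutamate transporter) and Retreg1 (a receptor for autophagy of the endoplasmic reticulum) had a peak in rMSC, and Dnmt3l (a cofactor of DNA methyltransferases), Ttc41 and Slc17a8 (a vesicular glutamate transporter) in control.

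The 10 lists held 39936 to 78489 peaks each. The sources used here do not give the read depth. The steps between the authors' fold values fit whole fragments over a background of 0.236 to 0.715 fragments per list, so that the weakest listed peaks rested on 3 to 5 fragments. Because a longer list also reaches weaker peaks, lists were compared at an equal size of 39912 peaks, taking those with the highest -log10 p. Cell identity was checked with the peak summits at marker genes in these lists, taken with 10 kb before and after the gene. Summits at 6 stromal markers numbered 1 to 8 in Scf-GFP-negative, 20 to 32 in Scf-GFP-positive, 29 to 34 in control and 22 to 24 in rMSC libraries, with Lepr at 0 in all 6 cultured libraries. Those at 8 blood cell markers numbered 23 to 30 in Scf-GFP-negative libraries and 9 to 12 in all the others, those at 4 red cell markers 18 to 23 against 3 to 9, and those at 4 endothelial markers 1 to 7 throughout. The blood markers Myb, Itgb2, Lyz2 and Elane lie on chromosome 10 and Il2rb and Csf2rb on chromosome 15, while the Scf-GFP-negative sum came mostly from Ikzf1 and Ptprc on other chromosomes. Myb, at 4 and 3, went the same way as the sum, and the other blood markers did not. Itgb2 held 2 and 1 in Scf-GFP-negative libraries against 3 or 4 in each cultured library. Elane held 0 and 2 against 5 and 4 in Scf-GFP-positive stroma. Lyz2, Il2rb and Csf2rb were at 0 in both Scf-GFP-negative libraries and at up to 2 in cultured ones. In these bulk samples a smaller share of cells of a type and less open chromatin per cell cannot be told apart.

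In lists of equal size, chromosome 10 held 7.76% ± 0.213 (SD, n = 3) of the peaks of rMSC libraries and 5.86% ± 0.110 (n = 3) of those of control cultures. Single rMSC libraries stood at 7.62%, 7.65% and 8.01% and control libraries at 5.78%, 5.98% and 5.81%. The freshly sorted cells were like the control cultures, with 5.87% ± 0.0198 (n = 2) in Scf-GFP-positive and 5.67% ± 0.117 (n = 2) in Scf-GFP-negative stroma. No rMSC library overlapped any library of the other 3 groups.

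Chromosome 15 held 6.02% ± 0.0493 of the rMSC peaks (5.96%, 6.05% and 6.04% in single libraries) and 4.40% ± 0.0247 of the control peaks (4.42%, 4.42% and 4.38%). Scf-GFP-positive stroma had 4.17% ± 0.0269 and Scf-GFP-negative stroma 3.70% ± 0.310. Again the rMSC libraries lay above all the others. In peak numbers, the rMSC lists held 2379, 2415 and 2411 peaks on chromosome 15 and the control lists 1762, 1764 and 1746.

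**Figure D1:**
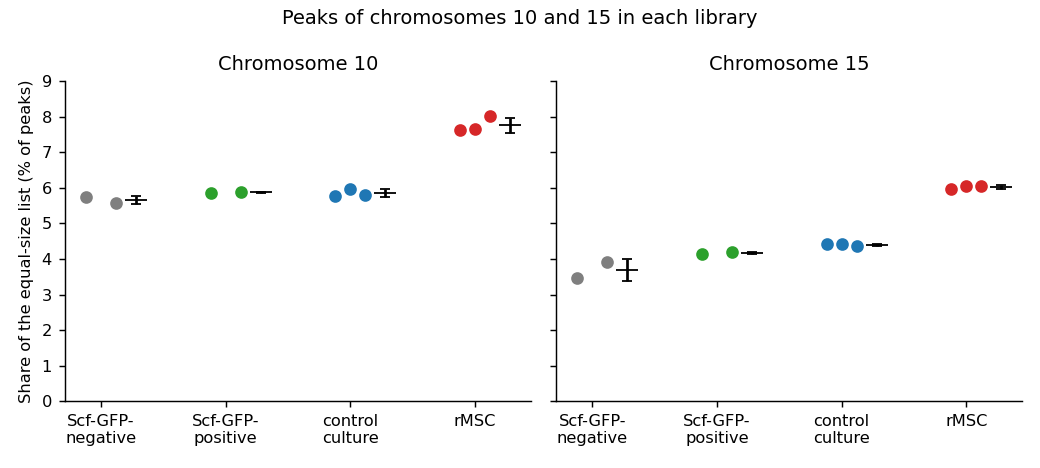
Share of each library's equal-size list (percent of peaks, vertical axis) that lies on chromosome 10 (left) and chromosome 15 (right), by group. Each dot is 1 library and the bar beside it is the group mean with its SD; the 3 rMSC libraries, at 7.62% to 8.01% and 5.96% to 6.05%, lie above all other libraries on both chromosomes.

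The ratio of rMSC to control share was 1.33 for chromosome 10 and 1.37 for chromosome 15. For the other 18 chromosomes it ran from 0.819 (chromosome 4) to 1.06 (chromosome 7), with chromosome 9 next lowest at 0.880. Peak names in the lists carry 2 flow-cell identifiers, with replicate 1 of each group on 1 of them. Within that flow cell the ratio was 1.32 for chromosome 10 and 1.35 for chromosome 15, and within the other flow cell it was 1.33 and 1.38.

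With all deposited peaks the difference was wider and the rMSC libraries spread apart, at 7.62%, 8.46% and 9.56% of the list on chromosome 10 against 5.86% to 6.00% in control, and at 6.03%, 6.39% and 7.001% on chromosome 15 against 4.39% to 4.46%. The excess was not limited to weak peaks. Among the strongest 10% of each deposited list, chromosome 10 made up 10.0%, 10.2% and 9.70% in rMSC and 5.62%, 6.05% and 5.70% in control libraries. In the weakest 10% it made up 8.87%, 10.7% and 13.0% in rMSC and 6.49%, 6.15% and 5.95% in control, so that the rMSC libraries differed among themselves chiefly at the weak end. The middle of the rMSC lists held less: the fifth of 10 equal steps of strength had 6.85%, 6.98% and 7.95% on chromosome 10, against 5.50%, 5.95% and 5.85% in control. On chromosome 15 the strongest 10% had 7.05%, 6.98% and 6.79% in rMSC and 4.24%, 4.15% and 4.22% in control.

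**Figure D2:**
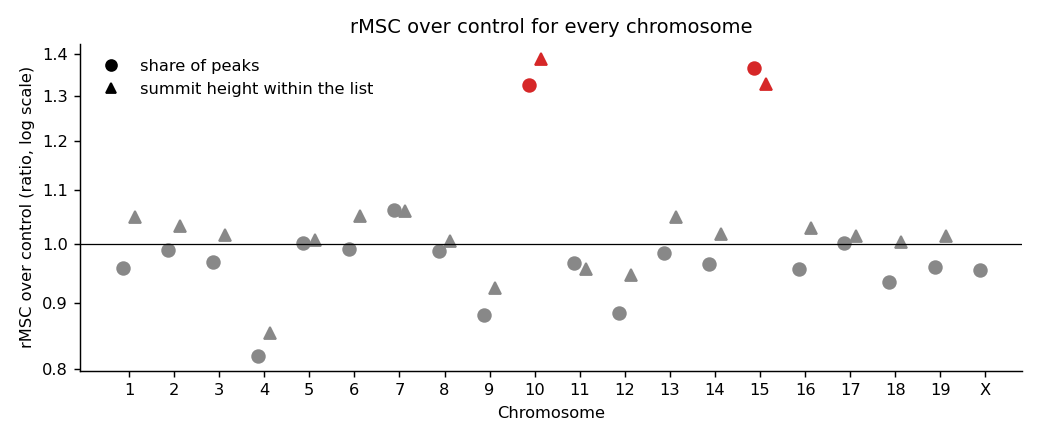
Ratio of rMSC to control (vertical axis, log scale) for each chromosome, from the group mean share of peaks in equal-size lists (dots) and from the height of summits, averaged on the log2 scale, relative to other autosomes of the same list at regions open in all 6 cultured libraries (triangles, autosomes only). Chromosomes 10 and 15, in red, are at 1.33 and 1.37 in share and at 1.39 and 1.33 in height, and every other chromosome is at or below 1.06.

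The added peaks were spread along both chromosomes. In windows of 5 Mb, all 3 rMSC libraries exceeded all 3 control libraries in 23 of 27 windows of chromosome 10 and 17 of 21 of chromosome 15, and in no window did all 3 lie below. Over the genome 111 of 536 windows (20.7%) had all rMSC libraries above and 137 (25.6%) had them all below. Among windows with a control mean of at least 20 peaks the ratio of the means ran from 1.09 to 1.54 on chromosome 10 (24 windows, median 1.32) and from 1.06 to 1.93 on chromosome 15 (18 windows, median 1.36). The highest ratio was at 70 to 75 Mb of chromosome 15, with 126, 131 and 138 summits in rMSC and 71, 65 and 69 in control libraries. The groups overlapped in 4 windows of each chromosome, several of them with few peaks. At 100 to 105 Mb of chromosome 10, which begins with Kitl, rMSC libraries had 15, 12 and 17 summits and control libraries 20, 18 and 14, and at 35 to 40 Mb rMSC had 52, 55 and 66 and control 52, 60 and 47.

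**Figure D3:**
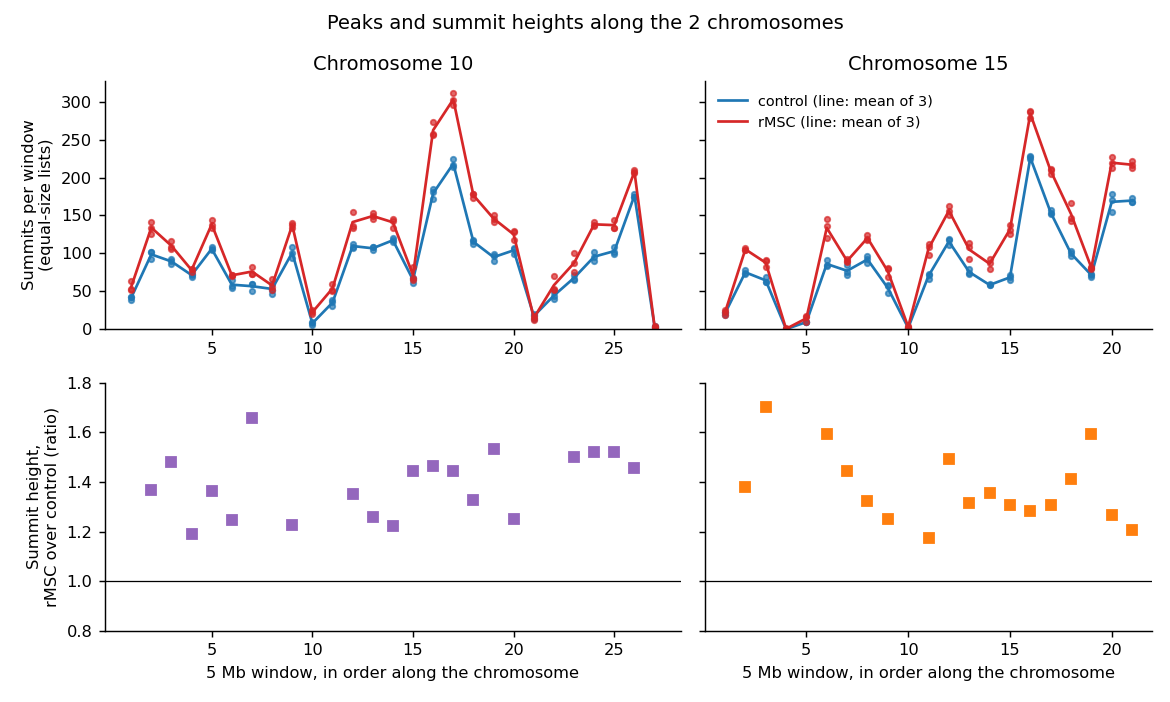
Upper panels, summits per 5 Mb window (vertical axis) in order along chromosome 10 (left) and chromosome 15 (right), with a dot for each library and a line for the mean of the 3 rMSC (red) or 3 control (blue) libraries. Lower panels, median ratio of rMSC to control summit height in windows with at least 20 regions open in all cultured libraries; it lies between 1.19 and 1.66 on chromosome 10 and between 1.17 and 1.70 on chromosome 15.

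Peaks present in every library were also taller on these chromosomes in rMSC. The authors' fold value at a summit was used only within its own list, as the median over regions of a chromosome divided by that over the other autosomes. At regions open in all 10 libraries (494 on chromosome 10, 380 on chromosome 15 and 8179 on the other autosomes), this ratio for chromosome 10 was 1.57, 1.59 and 1.68 in rMSC and between 1.00 and 1.05 in the other 7 libraries. For chromosome 15 it was 1.26, 1.27 and 1.27 in rMSC and between 0.862 and 0.952 in the others. The 3 rMSC libraries stood apart from all others on both chromosomes. Peak lists do not separate how accessible a chromosome was from how many copies of it the cells held, and these cannot be told apart here.

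Counting regions open in all 6 cultured libraries, the median rMSC over control height was 1.41 at 1126 regions of chromosome 10, 1.33 at 863 regions of chromosome 15 and 0.992 at 15346 regions of the other autosomes. It was above 1 at 82.2%, 79.8% and 49.0% of regions. In 5 Mb windows with at least 20 such regions it ran from 1.19 to 1.66 over the 20 windows of chromosome 10 and from 1.17 to 1.70 over the 17 of chromosome 15. By chromosome, heights were averaged on the log2 scale within each list and set against the other autosomes of that list. The rMSC over control ratio of these values was 1.39 for chromosome 10 and 1.33 for chromosome 15. It ran from 0.853 (chromosome 4) to 1.06 (chromosome 7) for the other 17 autosomes.

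The peaks of the 2 chromosomes had a lower share at gene starts in rMSC. On chromosome 10, 19.7% ± 0.161 of rMSC summits and 23.4% ± 0.835 of control summits lay within 1 kb of a RefSeq gene start. The shares on chromosome 15 were 13.7% ± 0.197 and 17.3% ± 0.653, whereas the other chromosomes had 27.99% ± 0.191 and 26.99% ± 0.669. Scf-GFP-positive stroma had 26.9% ± 0.481 on chromosome 10 and 20.2% on chromosome 15. Summits inside protein-coding genes made up 54.4% ± 0.821 on chromosome 10 in rMSC and 52.0% ± 0.676 in control, and 54.1% ± 0.917 and 52.8% ± 0.737 on chromosome 15. This share was also higher in rMSC on the other chromosomes, at 55.67% ± 0.0861 against 54.36% ± 0.592 in control. At gene starts the share of promoters with any peak was 39.5% to 40.0% in rMSC and 36.5% to 36.9% in control on chromosome 10, and 36.5% to 37.0% against 32.9% to 34.7% on chromosome 15.

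Median widths overlapped between rMSC and control libraries. In equal-size lists the median peak of chromosome 10 was 491, 540 and 495 bp wide in rMSC and 421, 501 and 495 bp in control, and that of chromosome 15 was 491, 529 and 491 bp against 408, 495 and 495 bp. Over the other chromosomes the group means were 492 ± 13.9 bp in rMSC and 478 ± 51.1 bp in control. With all deposited peaks the order turned: the chromosome 10 medians were 372, 351 and 291 bp in rMSC and 378, 356 and 353 bp in control.

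Regions were formed by merging the equal-size lists. Of 7568 regions on chromosome 10, 459 (6.07%) were open in all rMSC and no control library and 197 (2.60%) in all control and no rMSC library. On chromosome 15 these were 342 of 5357 (6.38%) and 137 (2.56%). Over all chromosomes 3.06% and 3.44% of 120025 regions fell in these sets.

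Whole-chromosome shifts were then taken out by giving every library the same number of peaks on each chromosome, 2228 on chromosome 10 and 1564 on chromosome 15, again those with the highest -log10 p. With these lists 245 regions (3.71%) of chromosome 10 were open in all rMSC and no control library and 245 (3.71%) in the reverse. For chromosome 15 the shares were 3.64% and 3.46%, and over all chromosomes 3.0% and 3.43%. Both lists say how open a locus was relative to others: the equal-size list against the genome, and the list with equal chromosome totals against the rest of its own chromosome.

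Gene loci were counted as summits in the gene and the 10 kb before and after it, and tested with limma on log2(summits + 0.5) over all loci of the genome with Benjamini-Hochberg adjustment at 0.05; log2 changes below are differences on that scale and understate the change of loci with few summits. In equal-size lists 43 of 953 tested loci on the 2 chromosomes had more summits in rMSC than in control (24 on chromosome 10 and 19 on chromosome 15) and 1 had fewer, where 1.43% and 1.18% of all loci passed in these directions. The median log2 change was 0.32 on each chromosome and 0 over all loci. Since the chromosomes were chosen from this contrast, nothing further was read from these counts.

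With equal chromosome totals 10 of 867 loci had more and 8 fewer summits in rMSC, where 0.905% and 0.762% of all 9058 loci passed; the 2 chromosomes had 1.15% and 0.923%. The median log2 change became 0. Of the 43 loci with more summits in equal-size lists, 7 passed in both settings and 36 did not, 8 of them because they fell below the filter of a mean of 2 summits per library. The 35 that were tested in both settings all had a log2 change above 0 with equal totals, with a median of 0.81. Leaving out any 1 of the 6 libraries lowered the counts to between 2 and 5 with more and between 3 and 5 with fewer summits, and a term for the flow cell lowered them to 3 and 6.

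**Figure D4:**
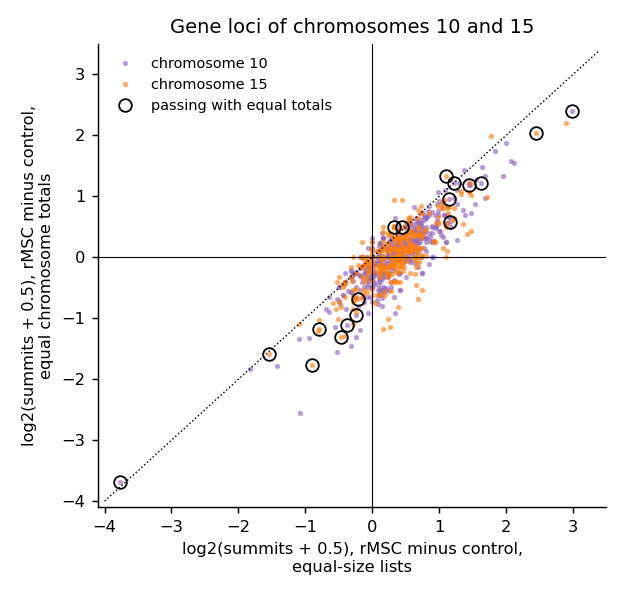
Log2 change in summits between rMSC and control at each of the 866 loci of chromosomes 10 (purple) and 15 (orange) that were tested with both kinds of list, in equal-size lists (horizontal axis) and in lists with equal chromosome totals (vertical axis). The dotted line marks equal values and black rings the loci that pass with equal totals; 686 loci lie below the line, where removing the chromosome total lowered the change.

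The leading loci with a call in equal-size lists only are given as a description, since the chromosomes were chosen from this contrast. At Ank, a pyrophosphate transport regulator of bone and joints on chromosome 15, the equal-size lists held 5, 5 and 8 control and 20, 17 and 25 rMSC summits, and its log2 change was 1.72 there and 0.99 with equal totals. Lypd2, also on chromosome 15, held 1 in each control and 4, 5 and 5 in rMSC libraries; its log2 change was 1.78 in equal-size lists and 1.99 with equal totals, so that it lost its call without a smaller change. Usp44 (a deubiquitinase of the cell cycle, chromosome 10), Snu13 (a ribonucleoprotein of the spliceosome and of box C/D particles) and Dnah5 (a dynein heavy chain of cilia) were too low to be tested with equal totals. Control and rMSC libraries did not overlap at Ank or Lypd2 in equal-size lists. Nor did they among all deposited peaks. Ank held 7, 15 and 17 control and 67, 53 and 57 rMSC summits there, and Lypd2 1, 3 and 2 against 7, 6 and 9.

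At Timp3 (chr10:86300412-86349505) the equal-size lists held 7, 9 and 8 summits in control and 23, 24 and 22 in rMSC libraries, a log2 change of 1.47. With equal totals the rMSC counts were 11, 15 and 15 and the control counts unchanged, still without overlap, and the log2 change of 0.73 ± 0.16 SE did not pass (adjusted p = 0.0638). Among all deposited peaks Timp3 held 7, 12 and 10 summits in control and 42, 46 and 50 in rMSC libraries. Timp3 lies inside Syn3, the gene of synapsin III, which is associated with synaptic vesicles, so that its summits also count there. Syn3 (chr10:86048746-86498926) had the most summits of any locus of the 2 chromosomes in rMSC equal-size lists, 49, 45 and 42, against 19, 22 and 19 in control. It kept its call with equal totals, at 29, 31 and 29 against 19, 21 and 19 summits (log2 change 0.58 ± 0.10 SE, adjusted p = 0.0389).

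Loci with more summits in rMSC beyond the chromosome total were led by Col13a1. Its lists with equal totals held 0 in the 3 control libraries, 1, 3 and 3 in rMSC and 5 and 8 in Scf-GFP-positive stroma (rMSC against control log2 2.40 ± 0.40 SE, adjusted p = 0.0381, limma; with a group at 0 the size depends on the pseudocount). The deposited control lists held 1, 2 and 3 weaker summits there and the deposited rMSC lists 5, 9 and 8. Slc38a1, a glutamine transporter on chromosome 15, held 1 summit in each control library and 5, 6 and 6 in rMSC (log2 change 2.04 ± 0.35 SE, adjusted p = 0.0407). In the freshly sorted cells it had 5 and 4 in Scf-GFP-negative and 0 and 1 in Scf-GFP-positive libraries. At Col13a1 the rMSC libraries lay between control culture and Scf-GFP-positive stroma, and at Slc38a1 they lay above both.

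The smallest adjusted p of loci with more summits came from small counts. Scyl2, a protein of clathrin-coated vesicles, had 1 summit in each control and 3 in each rMSC library (log2 change 1.22 ± 0.09 SE, adjusted p = 0.00246, limma). Tab1, an activator of the kinase TAK1 in TGF-beta and interleukin-1 signalling, had 1 in each control and 3, 3 and 4 in rMSC libraries (log2 change 1.34 ± 0.15 SE, adjusted p = 0.00988). Edar, the ectodysplasin receptor, held 1, 2 and 1 control and 3, 4 and 4 rMSC summits, with 8 and 7 in Scf-GFP-positive stroma. Wif1, a secreted inhibitor of Wnt ligands, held 1 in each control and 4, 3 and 2 in rMSC libraries, and Apaf1, the scaffold of the apoptosome, 3 in each control and 7, 6 and 6. The remaining calls, Polr2f (a subunit of RNA polymerases) and Exosc4 (a subunit of the RNA exosome), each rested on 2 summits in every control against 3 in every rMSC library, and their log2 change of 0.49 turned to -0.01 and -0.13 when equal-size lists were centred by chromosome total instead. Among all deposited peaks Scyl2 held 2, 3 and 3 summits in control and 3, 6 and 7 in rMSC libraries, and Tab1 2, 4 and 3 against 4, 3 and 5. Neither locus separated the groups there, and Exosc4 tied at 4. Edar, Wif1, Apaf1 and Polr2f stayed higher in every rMSC library.

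Among loci with fewer summits Fbxl7, an F-box protein of a ubiquitin ligase on chromosome 15, had 7, 7 and 6 in control and 1, 2 and 2 in rMSC libraries (log2 change -1.76 ± 0.20 SE, adjusted p = 0.0124, limma). Vps13b, a lipid transfer protein of the Golgi, had 5, 6 and 6 against 2 in each rMSC library (log2 change -1.30 ± 0.12 SE, adjusted p = 0.00526). Both had 3 to 7 summits in Scf-GFP-positive stroma, above every rMSC library. Among all deposited peaks the deficit was gone at both. Fbxl7 then held 9, 13 and 10 summits in control and 6, 14 and 16 in rMSC libraries, and Vps13b 8, 10 and 8 against 8, 11 and 11.

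Bicc1, an RNA-binding protein on chromosome 10, held 11, 12 and 9 control and 5, 4 and 5 rMSC summits, with 13 in each Scf-GFP-positive and 0 in each Scf-GFP-negative library (rMSC against control log2 change -1.11 ± 0.14 SE, adjusted p = 0.0151, limma). Csrp2, a LIM domain protein of smooth muscle, had 5, 4 and 4 against 2 in each rMSC library, and Ankrd33b had 2, 4 and 3 against 1. Galnt6, an enzyme that starts O-glycosylation, had 1 in each control and 0 in each rMSC library. Scf-GFP-positive stroma held 4 and 2 at Galnt6, and Scf-GFP-negative stroma 11 and 9. Mrtfa, a coactivator of serum response factor, had 9, 11 and 10 in control and 6 in each rMSC library, a log2 change of -0.69 that turned to 0.31 when only the stronger 50% of peaks were kept. In equal-size lists Bicc1 (log2 change -0.37) and Csrp2 (-0.25) did not pass. Among all deposited peaks Bicc1 held 15, 18 and 21 summits in control and 18, 21 and 24 in rMSC libraries. Csrp2 held 5, 7 and 7 against 9, 10 and 11 there, and Ankrd33b 3, 10 and 5 against 7, 8 and 11. Galnt6 and Mrtfa overlapped between the groups. These calls are therefore relative to the chromosome and do not show that sites were lost.

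Of the 18 calls 4, at Tab1, Scyl2, Vps13b and Csrp2, passed in every fit that left out 1 library, and 0 passed in every alternative. Among all deposited peaks the called order did not separate the groups at any of these 4. At 14 of the 18 loci all 3 libraries of at least 1 group held the same whole number of summits, which gives a small spread.

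**Figure D5:**
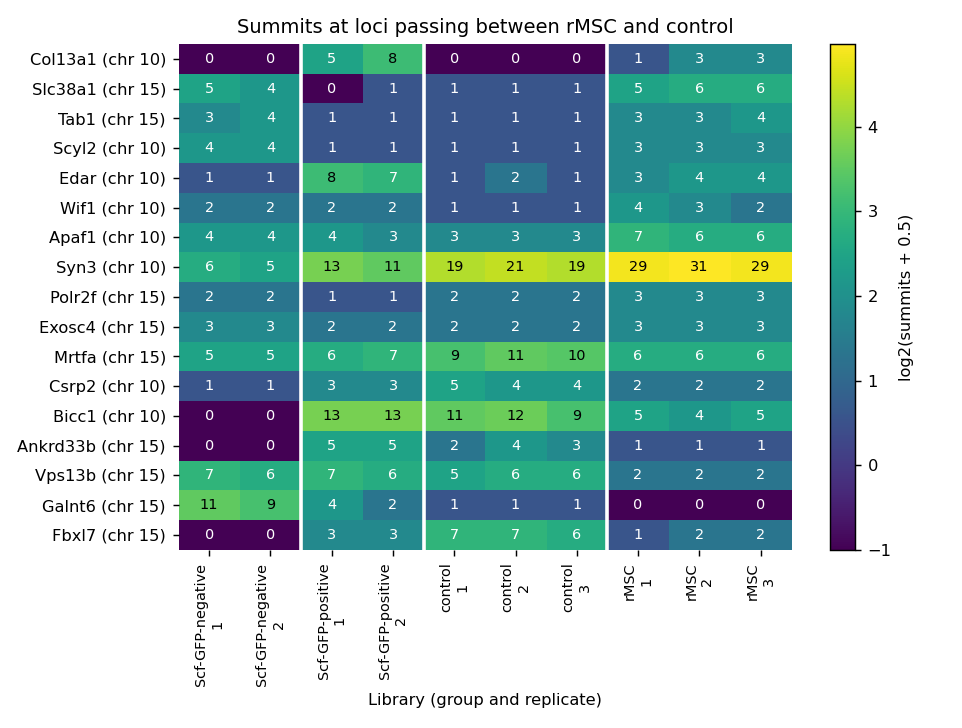
Summits in each library (columns, by group and replicate) at 17 loci of chromosomes 10 and 15 that passed between rMSC and control with equal chromosome totals (rows, ordered by log2 change); numbers are summits and colour is log2(summits + 0.5). The 3 rMSC libraries lie above the 3 control libraries at the 10 upper loci and below them at the 7 lower ones, while the freshly sorted groups follow no common order.

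Single regions at these loci showed where the counts came from; those named here had no peak at all in the deposited lists of the other group and were chosen after their values were seen. At Slc38a1, regions inside the gene at chr15:96608471-96609145 and chr15:96617417-96618298 were open in the 3 rMSC libraries and in none of the other 7. The first had authors' fold values of 23.5, 17.8 and 26.0 in rMSC, at least 2.87 times the median of each list. At Timp3, 3 regions between chr10:86304429-86305374 and chr10:86315232-86317245 were open in rMSC only, at no less than 1.13 times the median height of their lists. At Edar (chr10:58610654-58611439) and Wif1 (chr10:121097998-121098699) the rMSC regions were also open in both Scf-GFP-positive libraries and in no Scf-GFP-negative library.

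In the reverse direction, a region inside Vps13b at chr15:35861822-35862520 was open in the 3 control and both Scf-GFP-positive libraries, and one inside Mrtfa at chr15:81175631-81176166 in the control libraries only. Ranked by height within the lists, the tallest rMSC region of this kind on chromosome 15 was at chr15:74201764-74202397, outside any protein-coding gene, with fold values of 24.3, 26.3 and 21.5. On chromosome 10 it was at chr10:89094012-89095171 inside Ano4, a member of the anoctamin family, with 20.2, 20.1 and 15.6. The tallest control regions were at chr10:118479130-118479841, outside any coding gene, with fold values of 22.9, 24.7 and 21.6, and at chr15:59756130-59756645, with 13.9 in 2 control libraries and 14 in the other. All 4 were absent from both freshly sorted groups.

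The same separation was made along the chromosome with windows of 1 Mb. In equal-size lists 75 of 197 windows had more summits in rMSC than in control and 0 had fewer by limma with adjusted p under 0.05 (3 had fewer at an unadjusted p under 0.05), where 7.21% and 6.59% of all windows passed. The chromosomes were chosen for their higher peak numbers in this contrast, so that this count restates the choice. With equal chromosome totals 10 of 193 windows had more and 10 had fewer, where 4.84% and 5.13% of all windows passed, so that the 2 chromosomes (5.18% each way) stood near the genome. Leaving out any 1 library lowered these counts to between 1 and 3 with more and between 2 and 5 with fewer.

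The strongest window with more summits lay at 45 to 46 Mb of chromosome 10, with 5, 7 and 8 in control and 15, 15 and 11 in rMSC libraries (log2 change 0.99 ± 0.22 SE, adjusted p = 0.0184, limma). On chromosome 15 those at 51 to 52 Mb (11, 12 and 9 against 16, 20 and 16) and at 96 to 97 Mb, which holds Slc38a1 (19 in each control against 26, 27 and 31), also passed. The strongest window with fewer summits lay at 17 to 18 Mb of chromosome 10, with 22, 21 and 21 in control and 10, 10 and 13 in rMSC libraries (log2 change -0.93 ± 0.16 SE, adjusted p = 0.00449). On chromosome 15 the neighbouring windows at 34 to 35 Mb, which holds Matn2 (26, 27 and 18 against 14, 13 and 16), and at 35 to 36 Mb, which holds Vps13b (13, 11 and 12 against 7, 8 and 6), both passed with fewer summits. Control and rMSC libraries did not overlap in any of these windows.

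Genes grouped in lists by function were then followed with equal totals. Of 29 transcription factors tested, 0 passed in either direction between rMSC and control, and none of 21 growth control and stress genes, 10 blood cell genes, 8 interferon response genes or 5 niche and growth factor ligands passed, by limma with adjusted p. At an unadjusted p under 0.05 these lists had 6, 3, 1, 0 and 3 loci in the same order. Of 17 matrix genes tested 1 passed (Col13a1, more) and of 9 bone and cartilage genes 1 (Wif1, more). The list medians of log2 change ran from -0.61 for the niche ligands to 0.10 for bone and cartilage, where the median over all loci was 0.

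Kitl, the gene of stem cell factor, illustrates the limits of these counts. With equal totals it held 6, 6 and 5 summits in control and 3, 2 and 2 in rMSC libraries, and the log2 change of -1.14 ± 0.47 SE did not pass (adjusted p = 0.275, limma). Its equal-size lists held 6 in each control and 4, 3 and 5 in rMSC libraries (log2 change -0.55). Among all deposited peaks the order turned, with 6, 8 and 8 in control and 7, 14 and 13 in rMSC libraries. A promoter peak was listed in every Scf-GFP-positive, control and rMSC library and in neither Scf-GFP-negative library. Angpt1, a ligand of the receptor Tie2, held 4, 7 and 7 control and 4, 3 and 4 rMSC summits (adjusted p = 0.234), and Myc 5, 4 and 4 against 3, 5 and 5 (adjusted p = 1.0). Igf1, insulin-like growth factor 1, was listed at 0 in the 3 rMSC libraries and at 3, 3 and 4 in control, and was too low to be tested; among all deposited peaks it held 6, 6 and 9 in rMSC and 4, 7 and 9 in control libraries.

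Against fresh Scf-GFP-positive stroma, rMSC had more summits at 57 and fewer at 64 of the 867 loci, where 7.09% and 6.11% of all loci passed in these directions (6.57% and 7.38% on the 2 chromosomes). Ptprr, a tyrosine phosphatase, had 0 in both Scf-GFP-positive libraries and 4, 5 and 4 in rMSC (log2 change 3.27 ± 0.56 SE, adjusted p = 0.0135, limma). Soat2, which esterifies cholesterol, had 0 and 0 against 3, 5 and 5 (log2 3.24 ± 0.25 SE, adjusted p = 0.000636), and Itgb2, the beta chain of leukocyte integrins, 0 and 0 against 3 in each rMSC library. Slc38a1 and Pkhd1l1 completed the leading loci with more summits, and control cultures held 4, 4 and 4 summits at Ptprr, 3, 3 and 4 at Soat2, 3 in each library at Itgb2 and 2 in each at Pkhd1l1. Timp3 passed here, with 6 and 5 in Scf-GFP-positive stroma against 11, 15 and 15 (log2 1.23 ± 0.17 SE, adjusted p = 0.00651).

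Loci with fewer summits in rMSC than in Scf-GFP-positive stroma were led by Slc16a7, a monocarboxylate transporter, with 7 and 6 against 0 in each rMSC library, Prtn3, a proteinase of neutrophils, with 6 and 6 against 1, 0 and 0, and Galnt6, with 4 and 2 against 0. Phactr2 (13 and 9 against 2, 1 and 3) and Tmtc2 (4 and 5 against 1, 0 and 1) followed. Of 29 transcription factors tested 6 had fewer summits, among them Sp7 (osterix, of osteoblasts; 6 and 6 against 2, 3 and 3), Nfe2 and Foxo3. The interferon response list had 3 of 8 with fewer, the receptor Ifngr1, the feedback inhibitor Tnfaip3 and the restriction factor Apobec3, each with 1 or 2 summits in every rMSC library. Vdr, the vitamin D receptor, Angpt1, Adamts14 and Gadd45b also had fewer, and the receptor subunits Osmr and Acvr1b and the kinase Map3k5 more; Gadd45b was at a log2 change of -0.82, which was 0.0 with 2 kb on either side. Among all deposited peaks Sp7 held 6 and 6 summits in Scf-GFP-positive stroma against 5, 6 and 5 in rMSC, and Angpt1 13 and 10 against 12, 16 and 12. Adamts14, Tnfaip3, Tmtc2 and Galnt6 also overlapped or tied there. The other loci named here with fewer summits stayed lower in every rMSC library. Leaving out 1 library lowered the counts to between 33 and 40 with more and 21 and 33 with fewer summits.

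Control culture against the same Scf-GFP-positive libraries gave 51 loci with more and 63 with fewer summits, where 5.78% and 6.09% of all loci passed, and the Scf-GFP-positive libraries are shared with the comparison before. Ptprr, Soat2, Itgb2 and Pkhd1l1 led again, with Rnf217, a ubiquitin ligase, at 1 and 1 in Scf-GFP-positive and 6, 7 and 7 in control libraries (log2 change 2.25 ± 0.39 SE, adjusted p = 0.0145, limma). Matn2, a matrix protein of the matrilin family, had 5 and 3 against 16, 14 and 10 and stood at 7, 5 and 7 in rMSC. Col13a1 (5 and 8 against 0 in each control library), Edar (8 and 7 against 1, 2 and 1), Armt1, Sntb1 (a syntrophin) and Tbc1d30 led the loci with fewer. Sp7, Vdr, Ikzf4, Ifngr1, Tnfaip3, Apobec3 and Gadd45b had fewer summits in this comparison too, and so did Nfic, at 18 and 16 against 8, 7 and 8. Among all deposited peaks Sntb1 held 5 and 15 summits in Scf-GFP-positive stroma against 2, 6 and 4 in control, and Tbc1d30 6 and 7 against 4, 7 and 6. Gadd45b tied at 8, and the other loci named here with fewer summits stayed lower in every control library. Of those with more, Ptprr and Pkhd1l1 tied or overlapped there. Leaving out 1 library lowered the counts to between 21 and 33 with more and 20 and 27 with fewer.

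Scf-GFP-positive against Scf-GFP-negative stroma, both freshly sorted, gave the most calls, 123 with more and 164 with fewer summits, where 13.6% and 17.2% of all loci passed (14.2% and 18.9% on the 2 chromosomes). Bicc1 led, with 0 in both Scf-GFP-negative and 13 in both Scf-GFP-positive libraries (log2 change 4.75 ± 0.17 SE, adjusted p = 1.6e-05, limma; against a group at 0 the size depends on the pseudocount). Sema5a, a semaphorin, had 0 and 0 against 8 and 10, Adamts14, a procollagen N-proteinase, 0 and 0 against 9 and 7, and Ccn4, a matricellular target of Wnt signalling, 0 and 0 against 6 and 7. Of 17 matrix genes tested 9 had more and 1 (Itga5) fewer summits, with a list median of log2 1.55 where the median over all loci was -0.24. Kitl itself had 1 and 0 against 6 and 2 summits (log2 change 2.22 ± 0.57 SE, adjusted p = 0.0239), where the sort itself used a reporter of this gene.

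Of 29 transcription factors tested, 10 had more summits in Scf-GFP-positive stroma and 3 fewer. Hoxc6 (0 and 0 against 4 and 6), Hoxc8 (0 and 0 against 3 and 7), Hoxc10 and Hoxc4 of the chromosome 15 Hox cluster were among the former, with Hmga2, Trps1 and Zfpm2; neighbouring Hoxc genes share summits, so these are not separate observations. Nfe2 (12 and 19 against 4 and 5), Tcf3 and Atf4 had fewer. Receptors with more summits were Ghr, Osmr and Lifr, the latter at 1 and 0 against 6 and 10. Of 10 blood cell genes tested 4 had fewer, Cd24a (6 and 6 against 1 and 1), Itgb2, Fyb and Nfe2, and 1, Prtn3, more, beside the higher blood and red cell marker sums of the Scf-GFP-negative libraries given above; their part in these calls was not tested. Pkhd1l1, Ntn4 (netrin-4; 13 and 16 against 2 and 1), Soat2, Slc38a1 and Srebf2, a regulator of sterol synthesis (13 and 9 against 2 and 2), led the loci with fewer summits.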

How the data were processed

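ATAC-seq peak lists of 10 libraries in 4 groups were used. Reads were aligned to mm10 with BWA and peaks called with MACS2, per the submitters' processing notes, without versions or settings in the sources used here. There was 1 deposited list per library, so that peaks were called per sample. The authors' deposited columns are the fold enrichment of each peak (a ratio to background), its −log10 p and −log10 q, an integer score, which was not used, and its start, end and summit. The steps between fold values fit a single background value for each whole list. Fold values were used only within their own list.

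The chromosomes and gene lists were chosen with earlier results of these data known. Peaks on chromosomes 1 to 19 and X were ranked by −log10 p, with ties in seeded random order. Equal-size lists kept 39912 peaks per library, and lists with equal chromosome totals kept the lowest deposited number of each chromosome (2228 on chromosome 10, 1564 on chromosome 15). Summits per protein-coding locus (RefSeq GRCm38.p6, 21627 genes, with 10 kb before and after) and per 1 Mb window were tested with limma 3.58.1 with a mean-variance trend in R 4.3.3 on log2(summits + 0.5), all 4 groups in 1 fit, leaving out features that averaged under 2 summits per library. Calls were made at a two-sided Benjamini-Hochberg adjusted p of 0.05 over all features of the genome, and the test was checked on simulated data. The simulation drew Poisson counts and planted increases only, at loci with higher counts. It therefore did not check recovery of decreases, of changes at loci with few summits, or a spread as small as that of many calls. Regions are peaks of the 10 lists merged by an overlap of 1 bp. Named loci were the 10 (rMSC against control) or 5 (other comparisons) largest changes per direction that passed without overlap between groups, up to 4 passing members of each of 8 gene lists per direction, the 5 leading loci with a call in equal-size lists only, and Kitl, Angpt1, Timp3, Col13a1, Myc and Igf1. Numbered genes and all but 1 of genes within 50 kb were left out. Python 3.11.15, pandas 2.3.3 and numpy 2.4.6 were used for the rest. Alternatives varied the pseudocount, filters, list definition, flank and window, the fit and the libraries included. A locus that passed is counted but not reported here. Read depth per library is unknown, and no genome sequence was used, so that sequence is shown for promoters only.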

Additional observations from a re-analysis of the deposited data

How the results depend on the processing

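The counts depended on the settings more than the chromosome shares did; the cause was not tested. Between rMSC and control with equal totals, the 10 loci with more and 8 with fewer summits became 38 and 27 with no filter on low counts, 26 and 15 with only those groups fitted, 16 and 5 with 50% of the peaks and 2 to 5 and 3 to 5 with 1 library left out. A flow cell term left 3 with more, a mean of at least 1 summit gave 14 with fewer, and centring equal-size lists by chromosome total gave 4 with fewer, with Polr2f at -0.0062 and Exosc4 at -0.13. Exosc4 was at 0.0 with 2 kb on either side, as was Gadd45b between rMSC and Scf-GFP-positive stroma, and Mrtfa at 0.31 with 50% of the peaks.

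For rMSC against Scf-GFP-positive stroma, 57 and 64 became 109 and 99 with no filter, 34 and 24 with 50% of the peaks, and 33 to 40 and 21 to 33 with 1 library left out; those with fewer were 40 with only those groups fitted and 103 with centring. For control against Scf-GFP-positive stroma, 51 and 63 became 25 and 30 with 50% of the peaks and 21 to 33 and 20 to 27 with 1 library left out; those with more were 81 with no filter, and those with fewer 33 with only those groups fitted and 41 with 2 kb. Between the freshly sorted groups, 123 and 164 became 37 and 44 with only those groups fitted, 50 and 69 with 50% of the peaks, and 79 to 122 and 103 to 146 with 1 library left out; those with fewer were 90 with 2 kb.

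In equal-size lists the 43 with more became 91 with no filter, 95 with only those groups fitted, 10 with all deposited peaks and 10 to 25 with 1 library left out. The 1 with fewer became 4 with a mean of at least 1 summit, 6 with no filter, 3 with only those groups fitted, with 50% of the peaks or with 2 kb, 0 with all deposited peaks, and 0 to 1 with 1 library left out. The 75 windows with more became 34 with all deposited peaks and 33 to 39 with 1 library left out, and the 0 with fewer became 4 with only those groups fitted and 8 with 500 kb windows, and stayed 0 with 1 library left out. With equal totals the 10 and 10 windows became 17 and 25 with only those groups fitted, 1 to 3 and 2 to 5 with 1 library left out, and those with fewer 19 with 500 kb windows.

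The rMSC minus control share on chromosome 10, 1.90 points, was 2.64 with all deposited peaks, 2.32 with 50% of the list, 2.51 by covered bases and 1.78 to 1.97 with 1 library left out. On chromosome 15 it was 1.61, and 2.06, 1.90, 1.98 and 1.60 to 1.64. The height ratios of rMSC to control, taken from medians at regions open in all 10 libraries, were 1.59 and 1.38. They were 1.399 and 1.36 at regions open in the 6 cultured libraries and 1.56 to 1.61 and 1.37 to 1.39 with 1 library left out. With all deposited peaks the chromosome 10 difference near gene starts went from -3.66 to -5.09 points, and the median widths, 36.3 and 37.8 bp greater in rMSC in equal-size lists, were -24.3 and -13.5 bp. The 801 regions open in all rMSC and no control library were 411 with equal totals and 928 to 1045 with 1 library left out, and the 334 of the reverse were 365 to 466.

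Deviations from the group means at libraries with the same replicate number had r = -0.022, -0.02 and -0.001 between rMSC and control. With few summits per locus, counting noise alone brings r near 0, so these values cannot decide whether the numbers pair the libraries. Replicate 1 of each group also shares a flow cell. With a replicate block the loci with more and fewer summits numbered 1 and 0 between rMSC and control, 29 and 25 against Scf-GFP-positive stroma, 21 and 22 for control against it, 15 and 0 in equal-size lists, and 4 windows had more with equal totals. The lists give no depth, and weak peaks rest on 3 to 5 fragments, so that a summit missing from a list is not a closed site.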
